A study of Mus musculus with 16 samples.

Results

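The SR splicing factor family was followed through mRNA decay in mouse blood-forming cells, as the 10 genes Srsf1, Srsf2, Srsf3, Srsf4, Srsf5, Srsf6, Srsf7, Srsf9, Srsf10 and Srsf11. The members were chosen by symbol and make up 10 of the 55414 genes counted; each of the 10 symbols matched 1 gene and all 10 passed the filter on low counts. The cell type label gives LT-HSCs, long-term haematopoietic stem cells, sorted from lineage-depleted mouse bone marrow that had been cultured with stem cell factor and thrombopoietin. The genotypes were WT, wild type, and Nat10-deficient, Nat10 being the enzyme that acetylates cytidines in RNA to ac4C. All cells were exposed to 5 µM actinomycin D, a blocker of RNA synthesis, for 0, 1, 3 or 5 h. Each of the 8 groups of genotype and time has 2 files, 16 in all. Titles of the samples instead give 32D, a mouse myeloid progenitor line, and the sources do not settle which it was; the labels do not say how Nat10 was removed, in which cells, or at what age of the mice.

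SR proteins carry RNA recognition domains and a tail rich in arginine and serine. They bind enhancer sequences in exons, help the U1 and U2 particles choose splice sites, and several travel with the mRNA to the cytoplasm. Kinases of the Srpk and Clk families phosphorylate the tail, and the import receptor Tnpo3 carries the proteins into the nucleus. Many SR genes hold a poison exon whose inclusion sends the transcript to nonsense-mediated decay, by which a family member lowers its own level, and SRSF2 is a gene recurrently mutated in human myelodysplastic syndromes.

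Such transcripts are annotated for most of the family. GENCODE M21 (GRCm38) lists at least 1 transcript of the nonsense-mediated decay class for 9 of the 10 members, all but Srsf10, against 20.6% of 21745 coding genes. A retained-intron transcript is listed for 8 members, against 41.9% of those genes, and Srsf11 alone has 11 of them. The deposited counts add up all transcripts of a gene, so productive and poison-exon forms are not separated in any value given here.

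Because Nat10 acts on cytidines and ac4C in mRNA has been reported in repeats of a C followed by any 2 bases, the longest such run in the coding sequence of each member is given for some of those at the ends of the range. The principal coding transcript of GENCODE M21 was used, on the transcript's own strand, and capitals mark the repeated C. Runs of 8 or more units are present in 21.9% of 21745 genes and in 3 members, among them Srsf1 and Srsf6, while Srsf5, Srsf7 and Srsf10 reach only 4 units.
Srsf1 (GRCm38 chr11:88048517-88048543, + strand): CgaCggCtaCgaCtaCgaCggCtaCcg
Srsf6 (GRCm38 chr2:162931736-162931759, + strand): CagCggCtaCggCcgCctCctCga
Srsf5 (GRCm38 chr12:80949908-80949919, + strand): CtcCagCatCtg
Srsf7 (GRCm38 chr17:80204328-80204339, - strand): CtcCcgCagCag
Srsf10 (GRCm38 chr4:135856239-135856250, + strand): CtgCgcCccCct
The motif CNNCNNCNNCNN, searched on the transcript strand with overlapping matches counted, occurs in all 10 members and in 94.4% of coding genes. Its density has a median of 7.98 per kb over the members and 7.41 per kb over all genes. Srsf5 has the lowest density of the members, 1.24 per kb.

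The AU-rich pentamer ATTTA, a letter pattern found in the 3′ UTRs of many unstable mRNAs, was searched in the same transcripts in the same way. It occurs in 8 of the 10 members, not in Srsf4 or Srsf9, and in 62.8% of 20629 genes with a 3′ UTR. The members have a median of 1.996 per kb of 3′ UTR and all genes 1.17 per kb. The 30 bases with the most matches are shown for the members with the largest genotype differences below, Srsf1 and Srsf3, and for Srsf10, which has the most matches, 11 in 2722 bases; capitals mark the pentamer.
Srsf1 (GRCm38 chr11:88049799-88049828, + strand): tgatgtcatagacaggattgtttaaATTTA
Srsf3 (GRCm38 chr17:29041633-29041662, + strand): actttacaatgttcccttaagcaagATTTA
Srsf10 (GRCm38 chr4:135868804-135868833, + strand): ataaattactaagtgtATTTAtaccATTTA
A match is a description of the letters and is not evidence of acetylation or of a destabilising protein.

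Several facts of the libraries touch every value. Total counts ran from 9142413 to 17274128 per file. Nat10 mRNA did not follow the genotype label. Its level in the Nat10-deficient-labelled libraries was 88.3 and 91.3 CPM (counts scaled to the TMM-adjusted library size) at 0 h against 71.8 and 71.0 in WT, 98.3 and 100.6 at 3 h against 46.5 and 39.5, and 137 and 151 at 5 h against 38.5 and 35.2. It was lower at 1 h alone, 72.3 and 76.5 against 78.2 and 83.8 (log2 difference -0.12, adjusted p = 0.0421, edgeR), so the mRNA does not check the label and the groups are named by their labels. Immunoglobulin genes took from 3.91% to 66.7% of gene counts, with the highest shares in WT at 5 h, and the stem cell marker list (12 genes, none at 0) summed to 2137 to 2147 CPM in WT and 983 to 990 CPM in the Nat10-deficient-labelled libraries at 0 h. By 5 h that sum was 1238 to 1242 CPM in WT and 375 to 380 CPM in the other genotype, while the plasma and B cell list stood at 166614 to 168266 CPM and 4088 to 4122 CPM. The erythroid list summed to 2039 to 2043 CPM in WT and 8075 to 8094 CPM in the other genotype at 5 h, and the neutrophil and monocyte list to 11025 to 11147 and 13834 to 13947 CPM. Of the 10 neutrophil and monocyte genes, 5 were called higher and 5 lower in the Nat10-deficient-labelled libraries at 5 h (median log2 difference -0.39). The part of these cell type differences in the results below was not tested. ERCC spike-in RNA made up 1.79% to 2.92% of WT counts and 0.0221% to 0.129% of the others, so ERCC-scaled levels are read within a genotype only. The file headers give the same alignment name for both files of a group, in 8 of 8 groups, and their counts differed little beyond counting noise (chi-square per degree of freedom 1.43 to 1.81 over all genes). The p-values below therefore measure the spread between such files, which may be technical, and not the spread between separate sorts or mice. In bulk RNA a smaller number of expressing cells and less RNA per cell cannot be told apart.

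At 0 h in WT cells Srsf5 was the most abundant member per length and Srsf9 the least. On the FPKM scale (TMM-scaled CPM per kilobase of exon, mean ± SD of 2 files), Srsf5 stood at 236 ± 4.12, Srsf7 at 157 ± 1.18 and Srsf6 at 64.9 ± 0.163. Srsf5 and Srsf6 belong to the members with a pair of RNA recognition domains, and Srsf7 has a zinc knuckle beside its single one. Srsf2 (36.1 ± 0.256), Srsf3 (34.2 ± 0.937) and Srsf10 (29.8 ± 0.686) formed a middle tier, followed by Srsf11 (13.7 ± 0.388), Srsf4 (12.1 ± 0.491), Srsf1 (9.87 ± 0.0880) and Srsf9 (4.10 ± 0.423). No neighbours in this order overlapped between files at 0 h in either genotype. In the Nat10-deficient-labelled libraries at 0 h the order differed in the middle tier alone: Srsf3 (41.1 ± 0.361) and Srsf10 (37.0 ± 0.148) stood above Srsf2 (33.0 ± 0.376). By 5 h Srsf7 had passed Srsf5 in both genotypes, at 127 ± 2.74 against 107 ± 4.52 FPKM in WT. Lengths are the merged exons of all transcripts, so a gene with long rarely used exons reads low on this scale. No correction was made for exonic bases shared with other genes, 43.0% of those of Srsf4 and 25.3% of those of Srsf2.

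The family as a whole made up 0.380% and 0.376% of gene counts in the WT files at 0 h and 0.0786% and 0.0826% at 5 h. Leaving immunoglobulin genes out of the total, the WT shares were 0.396% and 0.392% at 0 h and 0.236% and 0.245% at 5 h. In the Nat10-deficient-labelled libraries the share of gene counts was 0.343% and 0.340% at 0 h and 0.278% for both files at 5 h. Srsf5 gave 31.7% of all family counts, Srsf7 20.2% and Srsf6 15.5%, so sums over the family mainly follow these 3 genes.

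**Figure D1:**
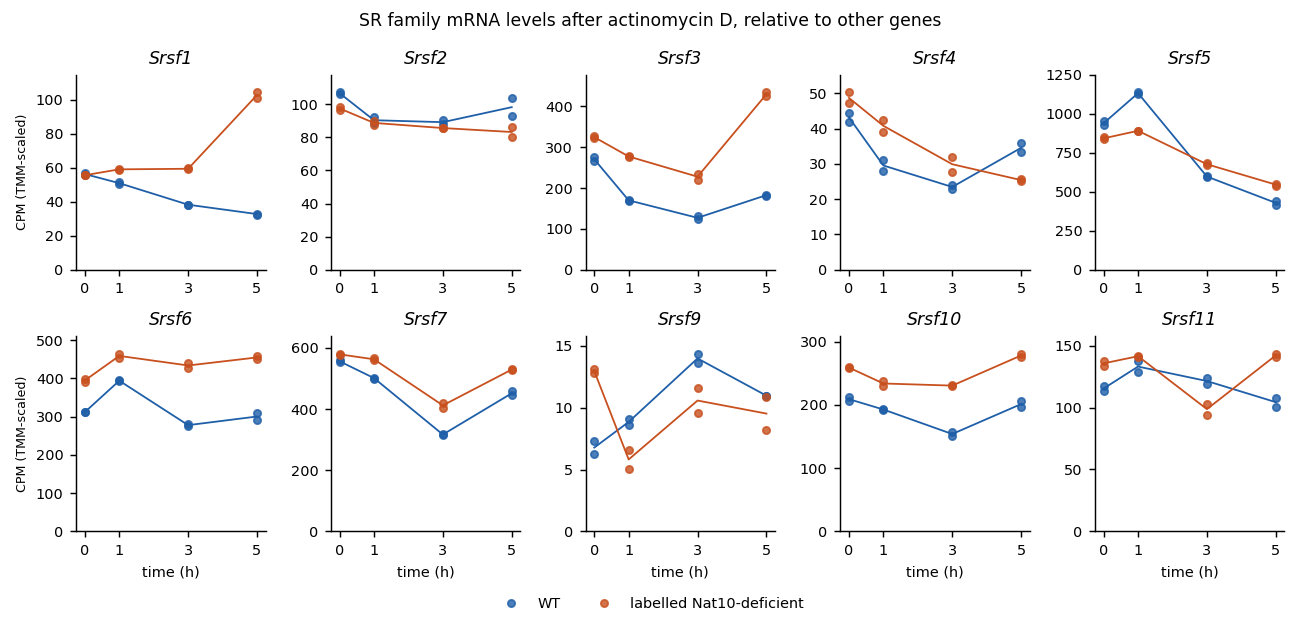
TMM-scaled CPM of each SR family gene (vertical axes from 0) against hours of actinomycin D; each point is 1 file, lines join the means of 2 files, WT in blue and Nat10-deficient-labelled libraries in orange. At 5 h Srsf1 stands at 101 and 104.5 CPM in the Nat10-deficient-labelled libraries and at 33.1 and 32.5 CPM in WT.

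Within the family, the largest differences between genotypes were in Srsf1 and Srsf3 at 5 h, both higher in the Nat10-deficient-labelled libraries. Among the differences of all genes tested at 5 h, Srsf1 stood at percentile 74.2 and Srsf3 at percentile 69.8. Srsf1 (GRCm39 chr11:87938199-87944581), the founding SR protein, which also takes part in translation and nonsense-mediated decay, began level with TMM factors: the CPM were 56.0 and 56.7 in WT and 55.8 and 55.6 in the other genotype at 0 h. At 1 h they were 51.8 and 50.2 in WT against 59.4 and 58.9, and at 3 h 38.4 and 38.2 against 59.8 and 59.2. At 5 h the WT files held 33.1 and 32.5 CPM and those labelled Nat10-deficient 101 and 104.5. The WT values were lower at each later time, while those of the other genotype lay between 55.6 and 59.8 up to 3 h and were highest at 5 h. The 5 h difference was 1.65 ± 0.0803 (log2, SE; 3.14-fold; adjusted p = 7.43e-53, edgeR), and at 0 h it was -0.017 ± 0.0564 (adjusted p = 0.86, edgeR). Over TMM and the 5 other settings given below, the 0 h difference ran from -0.36 to -0.017. Scaled on long-lived mRNAs, the difference was -0.24 at 1 h and -0.018 at 3 h, so the early course rests on the scaling.

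Srsf3 (GRCm39 chr17:29251602-29262347) is the smallest SR protein and links splicing to mRNA export. Its WT files held 276 and 265 CPM before treatment, 169 and 171 after 1 h, 131 and 123 after 3 h, and 181 and 184 after 5 h. The Nat10-deficient-labelled libraries held 327 and 322, 276 and 278, 235 and 220, and 434 and 425 CPM at the same times. Every file labelled Nat10-deficient was above every WT file of its time, though the 2 files of a group may be technical. How many other genes separate likewise was not counted. The log2 difference was 0.26 ± 0.0302 before treatment, 0.71 ± 0.0339 after 1 h, 0.84 ± 0.0425 after 3 h and 1.23 ± 0.0392 after 5 h (2.35-fold; adjusted p = 3.19e-84, edgeR).

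Over the family at 5 h, 7 members were higher in the Nat10-deficient-labelled libraries and 2 were lower, Srsf2 and Srsf4, where 34.2% of all genes tested were called higher and 30.1% lower. The median difference of the 10 members was 0.40, against 0.10 over all genes. Srsf6 (0.60 ± 0.0338), Srsf10 (0.47 ± 0.0404), Srsf11 (0.44 ± 0.0545), Srsf5 (0.35 ± 0.0290) and Srsf7 (0.23 ± 0.0301) followed Srsf1 and Srsf3. The calls and directions of all 9 held under 5 other settings: DESeq2 size factors in DESeq2 and in edgeR, libraries scaled on long-lived mRNAs, immunoglobulin genes left out, and no filter on low counts. Both DESeq2 settings used the same size factors. The settings without immunoglobulin genes and without a filter kept TMM factors, and all settings used the same files as replicates. Scaling on long-lived mRNAs gave the smallest value for Srsf1, 1.51, and for Srsf3, 1.099. With the files of a group summed, no genotype difference at 5 h was tested. At 0 h only that of straight lines fitted through all times was tested.

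Srsf2 and Srsf4 stood apart from this direction at 5 h. Srsf4 (GRCm39 chr4:131600928-131629017), which has a pair of RNA recognition domains and a long arginine-serine tail, held 35.8 and 33.3 CPM in WT and 25.2 and 25.6 CPM in the Nat10-deficient-labelled libraries. Its difference was -0.45 ± 0.106 (adjusted p = 9.08e-05, edgeR), where at 0, 1 and 3 h it had been 0.17, 0.46 and 0.35. The antisense gene Gm12992 covers 43.0% of the exonic bases of Srsf4, and counting took no account of strand. Gm12992 itself had 398 counts over all files against 8325 for Srsf4. The part of shared bases in the counts was not tested, here or for Srsf2 below. Srsf2 (GRCm39 chr11:116740727-116743920), which binds a broader set of exonic motifs, held 92.9 and 104 CPM in WT and 86.1 and 80.4 CPM in the other genotype. Its difference at 5 h was -0.23 ± 0.0613 (adjusted p = 0.000411), and 15.6% of its exonic bases are shared with Mettl23 and 9.7% with Mfsd11 on the opposite strand, genes with 10659 and 5024 counts over all files against 21153 for Srsf2. Both calls depended on the WT 5 h files, and leaving out either also shifted the TMM factors of the other libraries against each other by 0.202 (log2). Without the first WT 5 h file the difference was -0.14 for Srsf2 (adjusted p = 0.11, edgeR) and -0.22 for Srsf4 (adjusted p = 0.188), and without the second it was 0.0086 for Srsf2 (adjusted p = 0.995) and -0.33 for Srsf4 (adjusted p = 0.0241).

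Before actinomycin D and at 1 and 3 h, the direction changed over the settings for 5, 6 and 7 of the 10 members. With TMM factors 7 members were higher and 2 lower at 0 h (36.0% and 24.2% of all genes). After 1 h 6 members were higher and 2 lower (32.4% and 31.8%), and after 3 h 7 and 2 (30.4% and 37.0%). Scaled on long-lived mRNAs instead, 1 was higher and 7 lower at 0 h, then 1 and 8 after 1 h, then 1 and 6 after 3 h. The shares of all genes called under this scaling are not given here, so these counts have no background beside them. The calls that held in direction under all 5 other settings were Srsf9 higher and Srsf2 and Srsf5 lower at 0 h, Srsf3 higher and Srsf5 and Srsf9 lower at 1 h, and Srsf3 higher and Srsf11 lower at 3 h. A setting outside those 5 summed the files of a group and fitted a straight line over the hours for each genotype. The genotype difference of these lines at 0 h was called for no member: Srsf9 had 0.38 ± 0.564 (adjusted p = 0.98, edgeR). It was called for 0 of all genes, with 1240 at an unadjusted p below 0.05. Such a line runs through all times, so the difference of the 0 h libraries alone was not retested with summed files. The median of the members under TMM scaling for 0, 1 and 3 h was 0.20, 0.19 and 0.36, and under the long-lived scaling -0.14, -0.26 and -0.29. The same change of scaling moved the median of all genes from 0.10 to -0.061 before treatment, from 0 to -0.32 after 1 h and from -0.068 to -0.72 after 3 h.

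**Figure D2:**
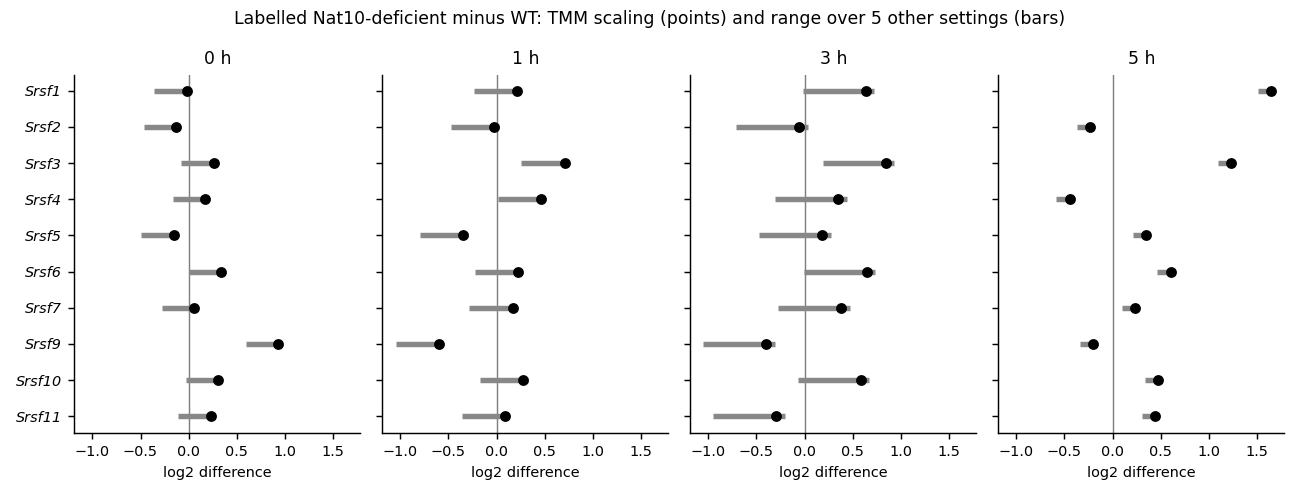
Log2 difference between Nat10-deficient-labelled libraries and WT (horizontal axis) for each member at each time: points are TMM scaling and grey bars span the values under TMM and 5 other settings. At 5 h no bar crosses 0 and Srsf1 spans 1.51 to 1.65, while 5 bars cross 0 at 0 h, 6 at 1 h and 7 at 3 h.

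Srsf9, a paralogue of Srsf1 and the member with the fewest counts, 53 to 275 per file, had the most irregular course. In WT its CPM were 7.27 and 6.28 at 0 h, 8.60 and 9.09 after 1 h, 13.6 and 14.3 after 3 h, and 10.98 and 10.96 after 5 h. In the Nat10-deficient-labelled libraries they were 13.1 and 12.8, 6.55 and 5.07, 9.55 and 11.6, and 8.18 and 10.9. The genotypes thus changed order between 0 and 1 h, with a log2 difference of 0.93 ± 0.140 at 0 h (adjusted p = 1.28e-09, edgeR) and -0.60 ± 0.166 at 1 h (adjusted p = 0.000785). At 5 h the difference of -0.20 ± 0.188 did not pass the threshold (adjusted p = 0.361).

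The courses relative to other genes differed between members within WT cells. From 0 to 1 h 4 members rose and 6 fell (29.7% and 31.6% of all genes), from 1 to 3 h 1 rose and 8 fell (36.1% and 30.7%), and from 3 to 5 h 5 rose and 2 fell (27.8% and 35.1%). Srsf5 (GRCm39 chr12:80992278-80997281), the most abundant member, had the largest fall: 951 and 928 CPM before treatment, 1127 and 1138 after 1 h, 597 and 599 after 3 h, and 416 and 441 after 5 h. After an early rise of 0.27 ± 0.0228 it fell by 0.92 ± 0.0255 from 1 to 3 h (adjusted p = 3.36e-95, edgeR) and by 0.48 ± 0.0305 from 3 to 5 h. Srsf3 fell by 0.67 ± 0.0341 in the first hour and by 0.42 ± 0.0441 from 1 to 3 h, then was higher by 0.52 ± 0.0502 at 5 h than at 3 h. That last value turned to -0.32 when libraries were scaled on long-lived mRNAs, and all 10 members were then called lower. The share of all genes called lower under that scaling is not given here. With TMM factors all 31 entries for long-lived mRNAs were higher in that step (median 0.67), and scaling on them moved all genes down.

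In the Nat10-deficient-labelled libraries 2 members rose and 5 fell from 0 to 1 h (23.2% and 26.7% of all genes), 1 rose and 6 fell from 1 to 3 h (27.7% and 28.1%), and 6 rose and 2 fell from 3 to 5 h (30.6% and 32.1%). Srsf1 and Srsf3 had the largest rises of the last step relative to other genes, 0.79 ± 0.0565 and 0.92 ± 0.0320, and both kept their direction and call under the 5 other settings. Those settings leave out the ERCC scale. Per ERCC count, Srsf1 went from 29.0% of its 0 h value at 3 h to 28.2% at 5 h, and Srsf3 from 19.1% to 20.2%. Srsf5 fell in this genotype too, from 848 and 837 CPM at 0 h through 893 and 889 at 1 h and 671 and 682 at 3 h to 539 and 553 at 5 h. Over all 4 times, TMM-scaled slopes were called positive for 1 member and negative for 8 in WT (28.1% and 31.2% of all genes), and positive for 4 and negative for 4 in the other genotype (29.0% and 31.8%). That of Srsf5 was -0.27 ± 0.00520 log2 per h in WT and -0.14 ± 0.00439 in the Nat10-deficient-labelled libraries. With the files of a group summed no member passed in either genotype, Srsf5 in WT having -0.27 ± 0.0786 (adjusted p = 0.0999, edgeR). Of the 25081 genes tested in that fit, 652 passed in WT and 297 in the other genotype. Scaled on long-lived mRNAs, 0 members were called with a positive slope and 9 with a negative one in each genotype. With TMM factors those long-lived mRNAs themselves had a median slope of 0.13 in WT and 0.12 in the other genotype. Scaling on them moved the slopes of all genes down, and the share of all genes called under it is not given here.

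Relative to the ERCC spike-ins all 10 members fell after actinomycin D in both genotypes, as did 57.4% of all genes in WT and 71.3% in the Nat10-deficient-labelled libraries, where 11.1% and 3.19% of genes rose. In WT, ERCC-scaled slopes ran from -0.24 ± 0.0343 log2 per h for Srsf9 to -0.66 ± 0.00745 for Srsf5, with a median of -0.45, against -0.36 over all genes. In the Nat10-deficient-labelled libraries they ran from -0.32 ± 0.0110 for Srsf1 to -0.68 ± 0.0150 for Srsf4, with a median of -0.49, against -0.48 over all genes. Lists of reference mRNAs gave the scale: the 22 short-lived mRNAs had a median of -0.92 in WT and -1.22 in the other genotype, and the 31 entries for long-lived mRNAs -0.26 and -0.37. The medians of the SR family thus lay between the reference lists in each genotype, nearer to the long-lived mRNAs.

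As a share of the 0 h value per ERCC count, Srsf5 was at 62.7% in WT at 1 h, 27.8% at 3 h and 9.82% at 5 h, and at 41.5%, 21.8% and 9.87% in the Nat10-deficient-labelled libraries. Srsf1 was at 47.0%, 29.7% and 12.5% in WT and at 41.7%, 29.0% and 28.2% in the other genotype. Srsf3 likewise had more left at 5 h in that genotype, 20.2% against 14.5% in WT. Srsf4 had less, with 17.2% left at 5 h in WT and 7.95% in the Nat10-deficient-labelled libraries. Srsf2, Srsf6, Srsf7, Srsf9, Srsf10 and Srsf11 also had less left at 5 h in the Nat10-deficient-labelled libraries than in WT. How many of all genes had less left was not counted. The median ERCC-scaled slope of all genes was likewise more negative in that genotype, -0.48 against -0.36 in WT. Srsf9 read 68.0%, 90.2% and 34.9% in WT, out of order with time, and 17.6%, 22.1% and 11.2% in the other genotype. The labels' protocol has cells sorted at each time, and the immunoglobulin share of counts rose from 3.91% to 66.7% over the same WT files; its part in these falls was not tested.

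**Figure D3:**
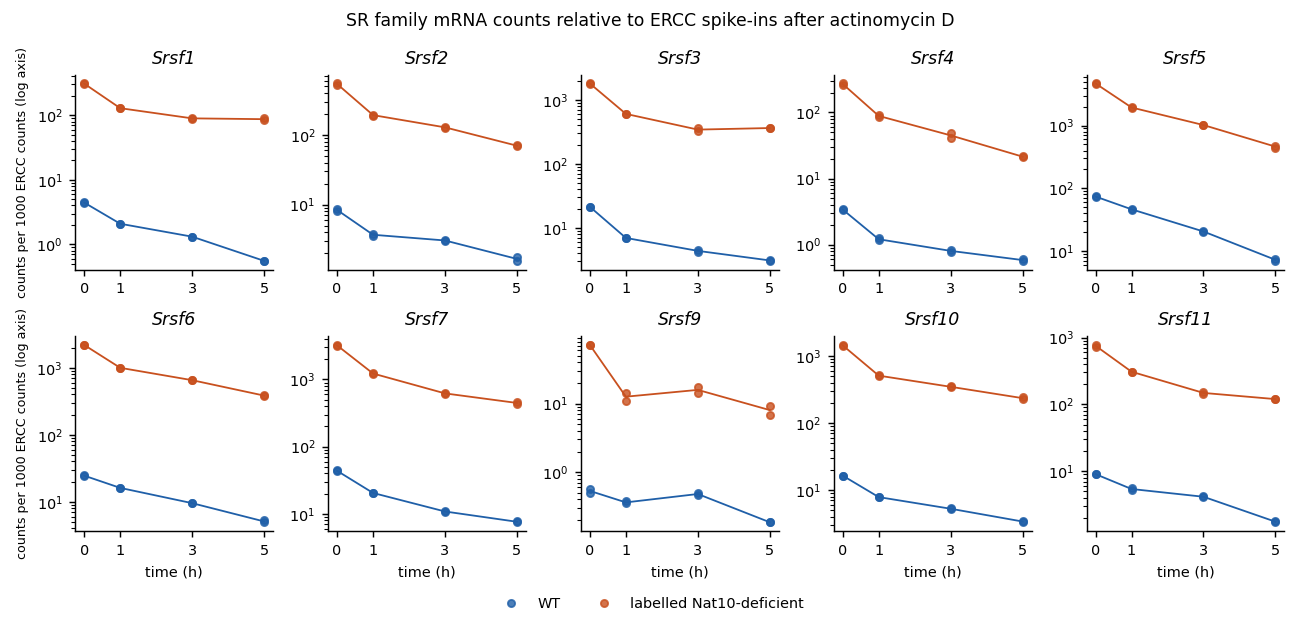
ERCC-scaled counts of each SR family gene (log axes) against hours of actinomycin D; points are files, lines join means, WT in blue and Nat10-deficient-labelled libraries in orange. The vertical gap between genotypes follows the ERCC share of each library and is not a comparison of levels; all 10 genes end lower at 5 h than at 0 h in both.

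With the 2 files of each group summed, so that 8 libraries carry the test, the ERCC-scaled falls were still called for 9 of the 10 members in WT and for all 10 in the Nat10-deficient-labelled libraries. The exception was Srsf9 in WT, at -0.23 ± 0.204 per h (adjusted p = 0.454, edgeR). Of the 25081 genes tested in this fit, 6897 passed the threshold in WT and 8891 in the other genotype. Srsf5 kept a slope of -0.66 ± 0.170 in WT (adjusted p = 0.00217) and -0.63 ± 0.161 in the other genotype (adjusted p = 0.00143). In this fit the spread includes the distance of each time from a straight line, and its errors ran from 0.144 to 0.204 per h in WT and from 0.136 to 0.185 per h in the other genotype, so no order of the members is drawn from it.

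**Figure D4:**
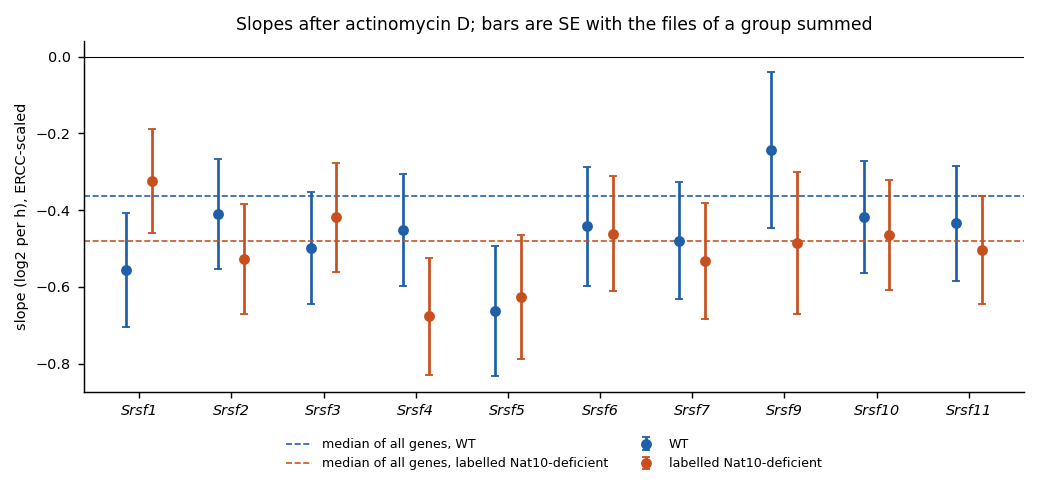
ERCC-scaled slopes (log2 per h, vertical axis) of each member in WT (blue) and Nat10-deficient-labelled libraries (orange); bars are standard errors from the fit with the files of a group summed, and dashed lines mark the medians of all genes, -0.36 and -0.48. The bars of the genotypes overlap for all 10 members.

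The slopes were then compared between genotypes. On the ERCC scale 3 members were called with a less negative slope in the Nat10-deficient-labelled libraries and 6 with a more negative one (15.7% and 32.1% of all genes). Srsf1 differed by 0.23 ± 0.0202 per h (adjusted p = 6.08e-29, edgeR), Srsf3 by 0.080 ± 0.0115 and Srsf5 by 0.034 ± 0.00958. Srsf9 (-0.24 ± 0.0453) and Srsf4 (-0.22 ± 0.0250) differed most in the other direction, and Srsf6 did not pass the threshold (-0.019 ± 0.0105, adjusted p = 0.136). The all-gene median of this difference was -0.096, so Srsf10 (-0.047), Srsf7 (-0.054) and Srsf11 (-0.069) lay above it although their signs were negative. With TMM factors 6 members were called with a positive difference and 2 with a negative one (24.5% and 24.2% of all genes), led by Srsf1 at 0.32 ± 0.0188 and Srsf3 at 0.17 ± 0.00949. The positive differences on the ERCC scale rested on the 5 h libraries: over 0, 1 and 3 h alone the difference was 0.000328 for Srsf1 (adjusted p = 1, edgeR), -0.041 for Srsf3 and -0.082 for Srsf5. No member was then called less negative in the Nat10-deficient-labelled libraries. With TMM factors the same times gave 0.22 for Srsf1 and 0.17 for Srsf3, and 0.043 for Srsf4, which was then not called. Without 0 h, the ERCC-scaled difference of Srsf9 turned to 0.077 and that of Srsf11 to 0.066. With files of a group summed no member passed under either scaling: Srsf1 then had 0.32 ± 0.101 with TMM factors (adjusted p = 0.592, edgeR) and 0.23 ± 0.193 on the ERCC scale (adjusted p = 0.974, edgeR).

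Of 11 genes for SR kinases and nuclear import, 5 were higher and 6 lower in the Nat10-deficient-labelled libraries at 5 h, with a median of -0.37, where all genes had 34.2% higher, 30.1% lower and a median of 0.10. Srpk1, which loads phosphates onto SR proteins in the cytoplasm, was higher by 1.01 ± 0.0448 and Prpf4b, a spliceosomal kinase, by 1.32 ± 0.0882. Clk1 and Clk4, nuclear kinases of SR proteins, were lower by a log2 value of -1.38 ± 0.0541 and -0.79 ± 0.101. The count of 5 and 6 was unchanged under DESeq2 size factors and under scaling on long-lived mRNAs.

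Of 26 SR-related proteins, 18 were higher and 7 lower at 5 h (median 0.63; all genes 34.2%, 30.1% and 0.10). U2af1 and U2af2, which recognise the 3′ splice site, were higher by 1.79 ± 0.0559 and 1.75 ± 0.0752, and Rsrp1 (-0.75 ± 0.0396) and Sfswap (-0.89 ± 0.174) were lower. Of 26 hnRNP genes, whose products often oppose SR proteins at exons, 24 were higher and none lower (median 1.12) against the same background, with Hnrnpa0 at 3.32 ± 0.137 and Hnrnpul2 at 1.87 ± 0.188. Of 45 core spliceosome genes tested, 44 were higher and none lower (median 1.07), led by Snrpa1 (1.80 ± 0.0711) and Lsm5 (1.71 ± 0.112). The SR family median of 0.40 was thus below those of the hnRNP and core spliceosome lists in the same comparison, and the difference between lists was not tested. Scaling on long-lived mRNAs gave medians of 0.26, 0.98 and 0.94 for the SR family, hnRNP and core lists.

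At 0 h, 40 of the 45 core spliceosome genes were higher and 1 lower, Prpf8 (-0.16 ± 0.0350), with a median of 0.48, where 36.0% of all genes were higher and 24.2% lower. With long-lived scaling 20 were higher and 6 lower (median 0.14), and the share of all genes called under it is not given here. For 18 genes of nonsense-mediated decay and mRNA export the counts were 10 higher and 2 lower before treatment (36.0% and 24.2% of all genes) and 12 and 2 after 5 h (34.2% and 30.1%). Upf1, the helicase at the centre of nonsense-mediated decay, stood 0.89 ± 0.129 above WT before treatment and 1.38 ± 0.192 above it after 5 h. The export adaptor Alyref was higher at 5 h by 1.09 ± 0.135. The 22 short-lived reference mRNAs were all lower at 5 h (median -1.43), the reverse of most splicing genes, and short-lived mRNAs, marker sums and immunoglobulin share all moved between these same groups; their part in the splicing lists was not tested.

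**Figure D5:**
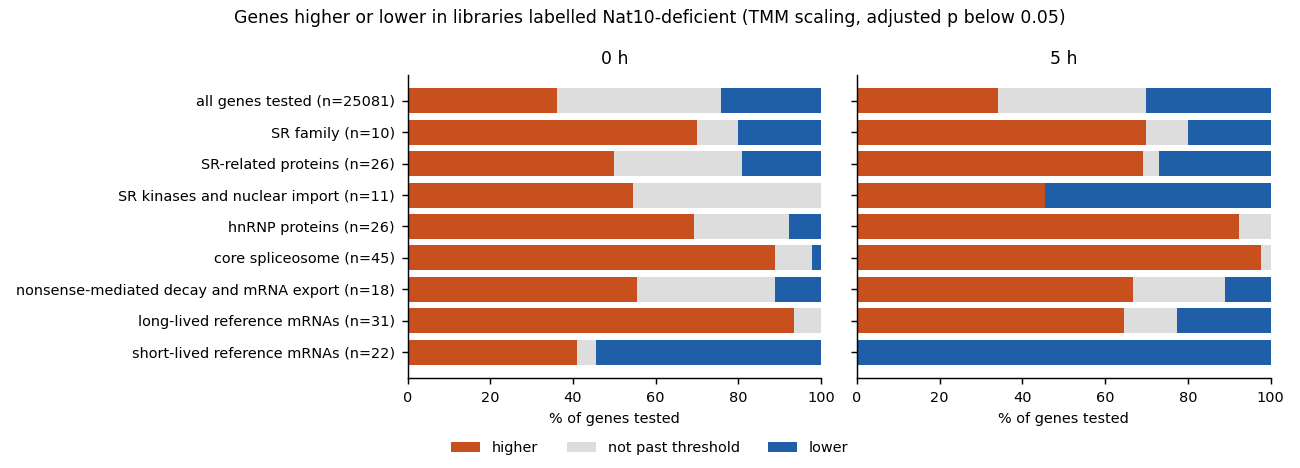
Share of the genes of each list (horizontal axis, percent of genes tested) called higher (orange), lower (blue) or neither (grey) in Nat10-deficient-labelled libraries at 0 h (left) and 5 h (right), TMM scaling. At 5 h 44 of 45 core spliceosome and 24 of 26 hnRNP genes are higher, against 7 of 10 SR family genes and 34.2% of all genes.

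Among themselves the members varied unequally over the 8 group means of log2 CPM. Srsf3 had the widest range, 1.76, from WT at 3 h to the Nat10-deficient-labelled libraries at 5 h, followed by Srsf1 at 1.65 and Srsf5 at 1.40, and Srsf2 had the narrowest, 0.36. Srsf3 and Srsf10, a member that represses splicing when its phosphates are removed, had the most alike profiles (r = 0.95 over 8 group means that share libraries and scaling), and Srsf7 and Srsf9 the least alike (r = -0.60). The mean profile of the members, with a range of 0.57, was highest in the Nat10-deficient-labelled libraries at 0 h and lowest in WT at 3 h.

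Outside the family, genes among the 8 whose group means followed the mean SR profile most closely, of 3978 compared, were Ube2e3 (r = 0.98 over 8 group means), Hnrnpf (0.98), Sf3b1 (0.98), Prrc2a (0.98), Hcfc1 (0.98), Coro1c (0.97) and Otub1 (0.97). Hnrnpf encodes an hnRNP protein and Sf3b1 a core subunit of the U2 particle. For Srsf3 alone the closest were Impa1 (0.99), Chtop (0.98), a factor of mRNA export, and Syncrip (0.98), an hnRNP protein. For Srsf2 they were Clk1 (0.93), a kinase of SR proteins, Tmbim1 (0.92) and Asxl2 (0.90). These are descriptions of like courses over few points.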

How the data were processed

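Polyadenylated RNA of 16 files was counted. The deposited files hold counts, whole fragment counts per gene; per the file headers they were made by featureCounts 1.6.3 with strand ignored. STAR, DESeq2 and the build GRCm39 appear in the submitters' processing notes. The authors deposited no scaled values used here. Symbols came from a supplied table of gene names (94.0% of identifiers matched). Sequences are from GENCODE M21.

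Of 55414 genes, 25081 passed filterByExpr (minimum count 10). edgeR 4.0.16 in R 4.3.3 fitted a mean for each of 8 groups and gave quasi-likelihood F tests, Benjamini-Hochberg adjusted over all genes tested, with a threshold of 0.05. Errors on log2 values are the log2 value over the square root of F. Library factors were TMM, or summed ERCC counts for ERCC-scaled slopes; slopes are linear contrasts over the hours. CPM and FPKM were computed from the counts and the exonic lengths in the files. All 10 members are named; from other lists, the 2 most positive and 2 most negative called genes whose mean log2 CPM reached 3, some of which are left out. Likeness used genes with mean log2 CPM reaching 5. 1 gene chosen by likeness and 1 sequence are not reported here. The members and lists were chosen with earlier results of these data known. Scripts were tested on simulated data. Depth ran from 9142413 to 17274128 counts per file; amplified reads without molecular identifiers make intervals cover counting error only. Alternatives were other library factors, DESeq2 1.42.0, filters, leaving out files or times, summed files and a replicate block. Replicate numbers do not pair the samples (28 pairs of groups, correlations of -0.02 to 0.11).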

Additional observations from a re-analysis of the deposited data

Results flagged for a closer look

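The slopes after actinomycin D differed between genotypes, by the interaction of genotype and time in edgeR with the files as replicates, for 8 members with TMM factors and 9 on the ERCC scale. Of all genes tested, 24.5% had a more positive and 24.2% a more negative difference with TMM factors, and 15.7% and 32.1% on the ERCC scale. With TMM factors the difference, Nat10-deficient-labelled libraries minus WT in log2 per h, was 0.32 for Srsf1, 0.17 for Srsf3, 0.13 for Srsf5, 0.074 for Srsf6, 0.046 for Srsf10 and 0.039 for Srsf7, and it was -0.15 for Srsf9 and -0.13 for Srsf4. On the ERCC scale it was 0.23 for Srsf1, 0.080 for Srsf3 and 0.034 for Srsf5, and it was -0.24 for Srsf9, -0.22 for Srsf4, -0.12 for Srsf2, -0.069 for Srsf11, -0.054 for Srsf7 and -0.047 for Srsf10. Srsf1, Srsf3 and Srsf5 were positive and Srsf4 and Srsf9 negative under both scalings, while Srsf7 and Srsf10 changed sign with the scaling. With the files of a group summed no member passed the threshold (edgeR; 1853 genes with TMM factors and 1722 on the ERCC scale had an unadjusted p below 0.05, and 0 and 70 of them passed after adjustment).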

How the results depend on the processing

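Several results depended on the scaling, and the cause was not tested. Counts of members under other scalings or filters are given here without the shares of all genes called. Scaled on long-lived mRNAs, the difference at 0 h (Nat10-deficient-labelled libraries minus WT, log2) turned negative for Srsf3 (-0.076), Srsf4 (-0.17), Srsf7 (-0.28), Srsf10 (-0.030) and Srsf11 (-0.11). At 1 h it did so for Srsf1 (-0.24), Srsf6 (-0.23), Srsf7 (-0.28), Srsf10 (-0.17) and Srsf11 (-0.36), and at 3 h for Srsf1 (-0.018), Srsf4 (-0.30), Srsf5 (-0.47), Srsf6 (-0.0094), Srsf7 (-0.27) and Srsf10 (-0.070). Members higher and lower were then 1 and 7 before treatment, 1 and 8 after 1 h and 1 and 6 after 3 h. The last WT step gave 0 and 10 (Srsf3 -0.32). In the Nat10-deficient-labelled libraries 1 member was higher in the first step, Srsf1 turned to -0.37 from 1 to 3 h, and the last step gave 3 and 5. TMM-type slopes then gave 0 higher in each genotype and 9 lower in the Nat10-deficient-labelled libraries, with Srsf9 at -0.035 in WT, and Srsf3 at -0.086 and Srsf9 at -0.15 in the other genotype. With TMM factors the long-lived mRNAs were themselves higher in the Nat10-deficient-labelled libraries, with medians of 0.39, 0.50 and 0.83 at 0, 1 and 3 h. Scaling on them moved the values of all genes down in those comparisons. DESeq2 size factors, in DESeq2 and in edgeR, turned Srsf7 at 0 h to -0.043 and Srsf5 at 3 h to -0.070. With either tool they gave 4 members lower at 3 h, 2 higher from 1 to 3 h in WT, 4 lower in the last WT step, 1 lower in the last step labelled Nat10-deficient and 4 lower by WT slope; in edgeR 2 were lower by the slope labelled Nat10-deficient. With no filter 1 member was lower at 3 h.

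With the files of a group summed, 0 members were higher and 0 lower at 0 h on straight lines through all times. The same held for TMM slopes of either genotype and for the slope differences under both scalings (edgeR). Unadjusted counts over all genes were 1240 for the lines at 0 h, and 4301 and 2732 for the TMM slopes in WT and the other genotype. After adjustment 0, 652 and 297 genes passed. Without 0 h, slopes turned for Srsf3 in WT with TMM factors (0.026), and slope differences for Srsf9 with TMM factors (0.10) and, on the ERCC scale, for Srsf6 (0.072), Srsf9 (0.077), Srsf10 (0.024) and Srsf11 (0.066), giving 5 higher and 2 lower; 5 members were lower by the WT TMM slope. Without 5 h, the ERCC-scaled difference turned for Srsf3 (-0.041) and Srsf5 (-0.082) with 0 higher, the TMM difference for Srsf4 (0.043) and Srsf11 (-0.18), and the TMM slope labelled Nat10-deficient for Srsf3 (-0.17), with 1 higher and 7 lower.

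Leaving out 1 file at a time gave 1 to 2 members lower at 0, 1 and 3 h, 0 to 2 at 5 h, 3 to 5 lower and 2 to 5 higher in the first step labelled Nat10-deficient, 1 to 2 lower in its last step and 1 to 2 by the TMM slope difference; Srsf2 at 5 h ran from -0.28 to 0.0086. Leaving out a WT 3 h or 5 h file moved the TMM factors of the other libraries against each other by 0.202 (log2).

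The replicate numbers do not pair the samples. With the replicate number as a block, 7 members were higher and 2 lower at each of 0, 1, 3 and 5 h, and 109 of 112 single-member values kept their call; Srsf11 at 1 h and the ERCC slope difference of Srsf6 gained one, and Srsf1 in the first WT step lost it. By slope differences, 6 members were higher and 2 lower with TMM factors, and 3 and 7 on the ERCC scale. The TMM slope labelled Nat10-deficient was called lower for 5 members with the block and 4 without it.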
